A study of Arabidopsis thaliana with 48 samples.

Results

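Leaf RNA of Arabidopsis thaliana plants harvested at labelled day 0.75 was compared with leaf RNA of plants harvested at labelled day 0.25, times on opposite sides of the daily cycle that go by the working names dusk and dawn. The libraries were chosen by their labels. They make up 8 of the 48 sequenced samples of the series, which are 4 libraries, 2 biological replicates at each time, with the 2 sequencing lanes of each library summed. Plants of both groups were of the ecotype Columbia, 6 weeks old, and carried no allele or added agent that the labels name. They had grown for 4 weeks before the conditions were set and then for 2 weeks at light 250 (µmol photons per square metre per second), with a 10 h photoperiod, 23 °C days and 5 °C nights. Whole rosettes were frozen, RNA was extracted from 4 to 6 plants each, and the extracts were pooled at random into the 2 replicates, so p-values measure the spread between those pools. Neither the zero of the labelled days nor the hour of lights-on is given in the labels. The labelled times lie 12 h apart and the light period lasted 10 h, so both harvests cannot have fallen inside the same light period. Whether light and temperature differed between the harvests is not given in the labels. Any such difference would go with the hour and could not be told apart from it.

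The plant circadian clock is a loop of transcription factors that repress one another in turn over the day. The MYB factors LHY and CCA1 accumulate around dawn and repress genes whose promoters hold the evening element. The pseudo-response regulators follow one after another through the day, and the evening complex of ELF3, ELF4 and LUX closes the loop around nightfall. In leaves the clock times flowering signals, growth, photosynthetic genes, cold responses and the nightly use of starch.

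Total counts were 32662539 and 29687826 in the replicates of day 0.25, and 35201890 and 25026634 in those of day 0.75. Levels are given as CPM, read counts relative to library size, with one trimmed-mean scaling for the 12 diurnal libraries, and were tested by edgeR's quasi-likelihood method, with p-values adjusted over every locus by Benjamini and Hochberg and a threshold of 0.05. The median difference between replicates was 0.11 on the log2 scale at day 0.25 and 0.14 at day 0.75. Over 2-fold differences between replicates occurred at 0.28% of 13335 well-counted loci at day 0.25 and at 0.76% at day 0.75. At day 0.916, which entered the test through the shared filter, scaling and estimate of spread, replicates differed most, by a median of 0.21. Without that time 10527 loci passed. The libraries went with the leaf label: 5 leaf markers summed to 25495 to 33743 CPM, 5 root markers to 0.11 to 0.33, 4 seed markers to at most 0.20 and 5 flower markers to 1.46 to 2.55, and 3 pollen markers were at 0 in all 4 libraries.

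Nearly as many loci were higher at day 0.75 as were lower. Of 20958 loci tested, 9525 (45.4%) passed the threshold, 4509 (21.5%) of them higher and 5016 (23.9%) lower at day 0.75. A difference of at least 2-fold was fitted for 1710 higher and 1727 lower loci. At 8-fold or more the balance was 110 higher against 171 lower loci, so the very large differences were more often falls. The replicates of the groups did not overlap at 15429 loci (73.6%), including 9521 of those past the threshold. The median log2 change was 0.03 over all loci tested, 0.83 over the loci called higher and -0.75 over those called lower. Under total-count scaling 9856 loci passed, 6563 higher and 3293 lower, and the share of higher calls went from 47.3% to 66.6%. The median log2 change of all loci then moved to 0.23, so directions here are to be read against the bulk of all loci. In whole rosettes, fewer cells of a type and less RNA per cell cannot be told apart.

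**Figure D1:**
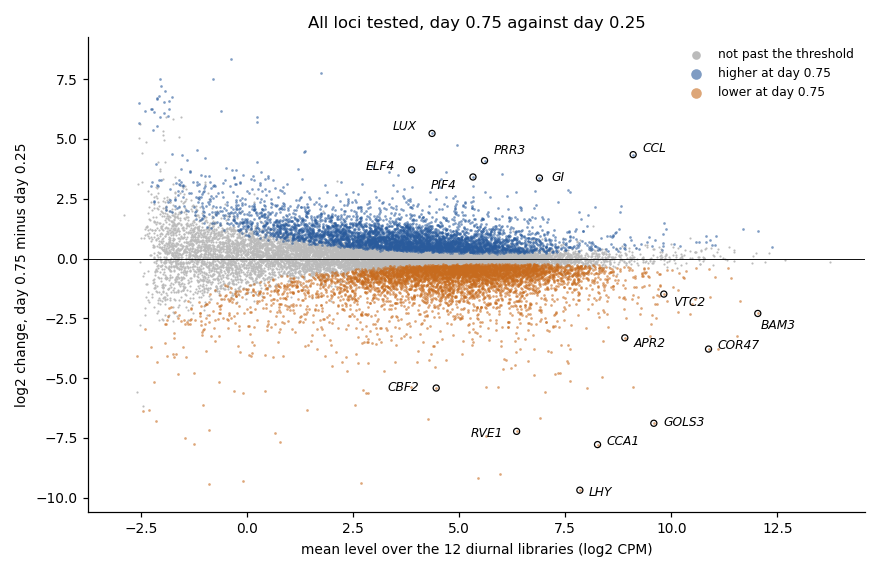
Log2 change from day 0.25 to day 0.75 (vertical axis) against the mean level over the 12 diurnal libraries (horizontal axis, log2 CPM) for the 20958 loci tested, each point 1 locus. Loci past the threshold are coloured by direction and circles mark 15 of the named genes; LHY lies lowest of those labelled, at -9.69, and LUX highest, at 5.23.

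The labelled times did not coincide with the extremes of every changing gene. Among the 6 labelled times, 35.1% of the loci called higher had their highest mean level at day 0.75 itself and 50.1% at day 0.625. Their lowest level fell at day 0.25 for 56.3% and at day 0.375 for 26.1%. Of the loci called lower, 56.8% were highest at day 0.25 and 1183 loci at day 0.375. Most of these were lowest at day 0.625 (51.2%) or day 0.75 (35.4%). These shares describe the mean levels of the loci that the test selected, and support nothing further.

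The morning and evening clock lists mostly moved in opposite directions. Of the 14 genes of the morning clock list, 11 were lower and 2 higher at day 0.75, and 1 did not pass, with a median log2 change of -2.30. Of the 12 genes of the evening clock list, 8 were higher and 1 lower, and 3 did not pass, with a median of 1.59. Those counts compare with 23.9% lower and 21.5% higher among all loci. Both lists kept these counts under total-count scaling and without the libraries of day 0.916.

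LHY (AT1G01060), a dawn-expressed MYB repressor, stood at 601 and 625 CPM in the replicates of day 0.25 and at 0.713 and 0.772 CPM in those of day 0.75. That is a log2 change of -9.69 ± 0.16 (SE; adjusted p 8.89e-11, edgeR), a level 825-fold lower. It was the largest fall among the loci that met the naming rule, which requires groups that do not overlap. CCA1 (AT2G46830), its close relative, went from 892 and 923 CPM to 3.54 and 4.78 CPM, a change of -7.78 ± 0.25 (adjusted p 9.79e-09). RVE1 (AT5G17300), another MYB factor of this family that links the clock to auxin, was at 233 and 197 CPM at day 0.25 and at 1.67 and 1.14 CPM at day 0.75, or -7.23 ± 0.17 on the log2 scale (adjusted p 2.33e-09). All 3 genes were high in both libraries of day 0.25 and near the floor of their daily range in both libraries of day 0.75.

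Each MYB gene followed its own course over the other times. LHY had mean levels of 253, 613 and 497 CPM at days 0.083, 0.25 and 0.375, then 1.40 at day 0.625, 0.742 at day 0.75 and 15.4 at day 0.916. CCA1 was also highest at day 0.25, with 908 CPM against 422 at day 0.083 and 470 at day 0.375. RVE1 was already at 220 CPM at day 0.083, stayed at 215 at day 0.25 and was at 9.75 at day 0.375. RVE2 (AT5G37260) had its highest mean earlier, 228 CPM at day 0.083 and 188 at day 0.916, was at 67.8 at day 0.25, at 1.74 at day 0.625 and at 24.4 at day 0.75, and fell by 1.47 ± 0.13 between the times compared. LHY and CCA1 were thus at their highest of the 6 times at day 0.25, for which dawn is only a working name.

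The activating members of the morning group were lower too. RVE8 (AT3G09600), a MYB factor that activates evening genes, was at 63.2 and 65.6 CPM at day 0.25 against 5.29 and 7.20 CPM at day 0.75, a log2 change of -3.38 ± 0.18 (adjusted p 2.44e-07). Its co-activators of the LNK family divided. LNK2, LNK3 and LNK4 fell by 2.81, 3.46 and 3.46, with LNK4 (AT5G06980) at 141 and 152 CPM and then 10.3 and 16.6 CPM. LNK1 (AT5G64170) was higher at day 0.75, with 66.0 and 75 CPM against 47.3 and 50.3 CPM (0.53 ± 0.14, adjusted p 0.00892), but it did not pass without replicate 1 of day 0.25 (0.49) or without replicate 2 of day 0.75 (0.44). LNK1 was at its highest at day 0.375, at 215 CPM, between the times compared. Of the other RVE genes, RVE4 fell by 1.78, RVE7 by 1.63 and AT5G52660 by 1.57.

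PRR9 and PRR7, the pseudo-response regulators that come first in the day, were not part of the fall. PRR9 (AT2G46790) had 3.63 and 4.61 CPM at day 0.25 and 4.22 and 6.10 CPM at day 0.75, groups that overlapped, and did not pass (0.31 ± 0.21, adjusted p 0.254). Yet PRR9 swung widely, since its mean was 154 CPM at day 0.375 and 0.784 CPM at day 0.083. PRR7 (AT5G02810) was higher at day 0.75, at 111 and 104 CPM against 55.5 and 61.8 CPM (0.88 ± 0.10, adjusted p 3.91e-05), and was highest at day 0.625, at 169 CPM. PRR9 thus hardly differed between the 2 times compared although it ranged widely over the 6 times.

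Evening genes mirrored the MYB genes. LUX (AT3G46640), the DNA-binding member of the evening complex, was at 1.68 and 1.61 CPM at day 0.25 and at 67.5 and 56.6 CPM at day 0.75, 37.7-fold higher (5.23 ± 0.19, adjusted p 2.24e-08). ELF4 (AT2G40080), a small protein of the same complex, went from 2.34 and 3.22 CPM to 35.8 and 36.9 CPM (3.71 ± 0.25). ELF3 (AT2G25930), which holds the complex together, went from 26.4 and 25.7 CPM to 81.1 and 79.1 CPM (1.62 ± 0.08). All 3 members of the complex were thus higher in both libraries of day 0.75, where groups did not overlap at 73.6% of all loci. For each of the 3 members day 0.75 was the highest of the 6 mean levels. BOA (AT5G59570), a close relative of LUX, rose by 1.56 ± 0.21, from 2.21 and 1.98 CPM to 6.03 and 6.32 CPM.

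GI, FKF1 and PRR3 rose with the evening complex. GI (AT1G22770), a large protein that acts in the clock and in day-length sensing, had 20.6 and 22.7 CPM at day 0.25 and 213 and 233 CPM at day 0.75 (3.37 ± 0.13, adjusted p 3.35e-08). FKF1 (AT1G68050), a blue-light receptor that works with GI, was at 5.18 and 5.16 CPM and then at 48.4 and 56.0 CPM (3.33 ± 0.30). PRR3 (AT5G60100) was at 6.07 and 6.81 CPM and then at 119 and 101 CPM (4.1 ± 0.16). These 3 genes stood at similar means at day 0.625, with 214 CPM for GI, 55.8 for FKF1 and 123 for PRR3. CHE (AT5G08330), a repressor of CCA1, was at 22.1 and 14.4 CPM against 8.90 and 9.45 CPM (1.00 ± 0.25, adjusted p 0.00748), and did not pass without replicate 1 of day 0.75 (0.68).

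The remaining 4 members of the evening list did not rise. PRR5 (AT5G24470) was lower at day 0.75, with 23.2 and 25.2 CPM against 50.6 and 56.2 CPM (-1.14 ± 0.19, adjusted p 0.000671), between means of 57.1 at day 0.625 and 108 at day 0.916. TOC1 (AT5G61380), the pseudo-response regulator that represses CCA1, had 106 and 117 CPM at day 0.25 and 115 and 101 CPM at day 0.75 (-0.04 ± 0.11, adjusted p 0.802). Its replicates overlapped, and the sign of that small value turned under total-count scaling, with lane 1 alone, without replicate 2 of day 0.25 and without replicate 2 of day 0.75. TOC1 peaked at 133 CPM at day 0.916 and had its trough of 25.4 CPM at day 0.375. ZTL and LKP2, relatives of FKF1, had log2 changes of 0.04 and -0.16, did not pass, and their signs turned under some settings as well.

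**Figure D2:**
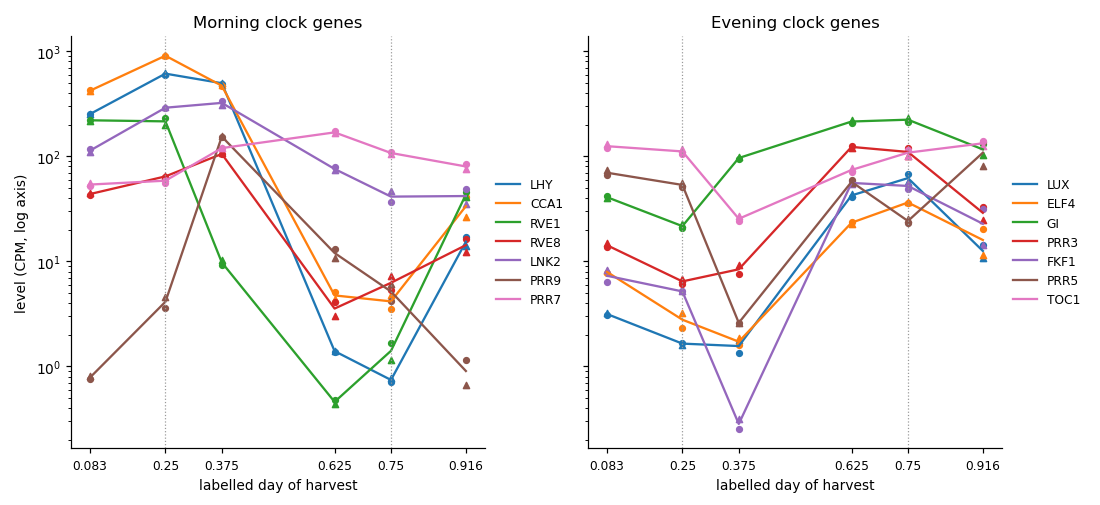
Levels of 7 morning and 7 evening clock genes (vertical axis, CPM on a log scale) at the 6 labelled days of harvest (horizontal axis), with circles for replicate 1, triangles for replicate 2 and lines through the means. Dotted lines mark days 0.25 and 0.75; LHY falls from 613 to 0.742 CPM between them, LUX rises from 1.65 to 62, and PRR9 reaches 154 at day 0.375 yet is at 4.12 and 5.16 at the 2 times compared.

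Because these clock genes moved in opposite directions, their promoters were read for the motifs that morning MYB factors and light-regulated factors are known to bind. The sequences below are the 250 bases before the annotated gene start, from RefSeq TAIR10.1, printed from 5′ to 3′ along the gene's strand. Capitals mark the evening element, AAAATATCT or its reverse complement AGATATTTT, and the G-box, CACGTG. The first 3 belong to evening genes and CCL, which rose, the next 2 to genes that hold the evening element and fell, and the last 2 to the morning MYB genes. LUX lies at chr3:17182792-17183041 on the plus strand, FKF1 at chr1:25508389-25508638 on the plus strand, CCL at chr3:9827432-9827681 on the plus strand, PRR5 at chr5:8358547-8358796 on the minus strand, COL2 at chr3:489468-489717 on the minus strand, LHY at chr1:37872-38121 on the minus strand and CCA1 at chr2:19245341-19245590 on the plus strand.
LUX: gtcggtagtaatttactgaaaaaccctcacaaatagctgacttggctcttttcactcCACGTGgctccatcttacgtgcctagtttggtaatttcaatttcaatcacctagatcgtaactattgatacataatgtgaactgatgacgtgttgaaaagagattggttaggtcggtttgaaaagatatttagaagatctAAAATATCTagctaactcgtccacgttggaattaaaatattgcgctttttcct
FKF1: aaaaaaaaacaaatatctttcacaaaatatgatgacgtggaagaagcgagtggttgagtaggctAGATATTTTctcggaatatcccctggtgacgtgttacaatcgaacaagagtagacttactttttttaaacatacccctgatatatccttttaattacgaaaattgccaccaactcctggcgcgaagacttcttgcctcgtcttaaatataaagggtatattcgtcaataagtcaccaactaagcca
CCL: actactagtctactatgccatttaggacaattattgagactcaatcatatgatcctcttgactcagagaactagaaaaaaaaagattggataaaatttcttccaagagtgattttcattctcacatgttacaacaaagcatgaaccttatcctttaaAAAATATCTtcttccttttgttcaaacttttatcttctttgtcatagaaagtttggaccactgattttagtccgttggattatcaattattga
PRR5: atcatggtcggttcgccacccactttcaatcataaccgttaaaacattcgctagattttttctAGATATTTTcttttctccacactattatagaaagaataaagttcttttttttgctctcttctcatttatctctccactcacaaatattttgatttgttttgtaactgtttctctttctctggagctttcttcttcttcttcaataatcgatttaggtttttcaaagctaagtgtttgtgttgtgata
COL2: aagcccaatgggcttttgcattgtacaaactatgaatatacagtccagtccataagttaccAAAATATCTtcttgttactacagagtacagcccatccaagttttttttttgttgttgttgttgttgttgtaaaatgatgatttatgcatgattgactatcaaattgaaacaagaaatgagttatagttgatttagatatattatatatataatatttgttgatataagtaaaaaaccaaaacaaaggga
LHY: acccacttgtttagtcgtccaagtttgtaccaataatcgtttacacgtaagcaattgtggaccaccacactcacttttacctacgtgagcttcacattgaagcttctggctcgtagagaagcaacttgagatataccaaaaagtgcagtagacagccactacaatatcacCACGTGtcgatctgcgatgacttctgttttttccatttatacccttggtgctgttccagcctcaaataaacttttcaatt
CCA1: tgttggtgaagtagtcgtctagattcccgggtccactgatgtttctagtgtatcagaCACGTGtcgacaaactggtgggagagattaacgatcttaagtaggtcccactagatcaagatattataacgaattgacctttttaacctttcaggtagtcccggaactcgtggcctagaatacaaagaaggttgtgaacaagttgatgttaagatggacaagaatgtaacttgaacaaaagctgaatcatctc

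In a window from 250 bases before to 50 bases after the gene start, the evening element was present on either strand in 3.09% of the promoters of 20752 tested loci, and the G-box in 8.71%. The LUX promoter holds an evening element starting 53 bases before the gene start and a G-box at 193 bases. FKF1 holds 2 evening elements, 1 at 186 bases before the start and 1 at position 1, after the printed bases. In the CCL promoter the element starts at 93 bases. The element was found in 5 of 12 evening clock promoters and in 2 of 14 morning clock promoters, and the G-box in 2 and in 10. LHY carries its G-box 80 bases before the gene start and CCA1 at 193 bases.

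Neither motif went with the same direction of change at every gene that held it. The G-box, for example, was present in LUX and BOA, which rose, and in LHY and CCA1, which fell. Shares among the largest rises and falls are given below, and the differences between them were not tested. The evening element was in 3.92% of the promoters of loci called higher and in 3.26% of those called lower, against 2.68% of those that did not pass. For the G-box these shares were 8.95%, 9.54% and 8.24%. PRR5 and COL2, both lower at day 0.75, hold an evening element at 187 and 189 bases. So does TOC1, which did not pass, at 151 bases. Among the loci at least 8-fold lower, 18.8% of 170 promoters held the G-box, and among those at least 8-fold higher, 8.26% of 109. The evening element was in 7 (4.12%) of the promoters of the lower set and in 9 (8.26%) of the higher set. A match describes these letters in this window and is not a measured site.

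Beyond the clock, the 10 largest rises included CCL (AT3G26740), named in RefSeq as a CCR-like protein, which was at 59.1 and 48.8 CPM at day 0.25 and at 1101 and 1092 CPM at day 0.75 (4.34 ± 0.20, adjusted p 9.87e-08). AT1G07050, annotated as a CCT motif protein, went from 3.00 and 2.16 CPM to 76.4 and 65.0 CPM (4.77 ± 0.17). PIF4 (AT2G43010), the growth-promoting bHLH factor that phytochrome B restrains, went from 6.27 and 5.67 CPM to 62.6 and 64.6 CPM (3.41 ± 0.15). In each of these 3 genes both libraries of day 0.75 lay above both of day 0.25, which the naming rule required of the 10. The remaining ones were AT3G62550 (3.55), bHLH093 (3.48) and AT2G03310 (3.63), beside LUX, PRR3 and ELF4. AT1G62500, annotated as a lipid-transfer protein relative, completed the 10 with uneven replicates, 67.4 and 14.8 CPM at day 0.75 against 1.98 and 4.80 CPM (3.62 ± 0.66, adjusted p 0.00117). Without replicate 1 of day 0.75 its change was 2.18, and without replicate 2 it was 4.33.

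The 10 largest falls joined clock, flowering and stress genes. AT1G26790, annotated as a Dof-type zinc finger protein, had 127 and 98.7 CPM at day 0.25 and 0.219 and 0.147 CPM at day 0.75, the latter resting on 8 and 4 counts (-9.20 ± 0.32, adjusted p 1.49e-08). AT3G55580, annotated with the RCC1 family, went from 218 and 214 CPM to 0.164 and 0.735 CPM (-9.02 ± 0.36), or -8.16 without replicate 1 and -10.33 without replicate 2 of day 0.75. AT3G09450 went from 114 and 99.9 CPM to 0.356 and 0.956 CPM (-7.42 ± 0.29), with -6.76 and -8.21 in the same alternatives. Each of the 3 was at a level of about 100 CPM or more in both libraries of day 0.25 and under 1 CPM in both of day 0.75. Groups that do not overlap were required by the naming rule. ELIP2 (AT4G14690), an early light-induced protein of the thylakoid, was at 251 and 252 CPM and then at 2.11 and 2.87 CPM (-6.67 ± 0.26). LEA3 (AT1G02820), a late embryogenesis abundant protein, fell by 6.70 ± 0.49, with changes of -7.89 and -6.0 from lane 1 and lane 2 alone. The others were LHY, CCA1, RVE1, GOLS3 and COL2.

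Genes that read day length for flowering were mostly lower at day 0.75. Of 14 genes in the list 13 were tested, FT being too low, and 9 (69.2%, against 23.9% of all loci) were lower, 1 was higher and 3 did not pass, with a median log2 change of -1.94. COL2 (AT3G02380), a relative of CONSTANS, had 364 and 285 CPM at day 0.25 and 6.85 and 6.51 CPM at day 0.75 (-5.60 ± 0.15, adjusted p 4.60e-09). COL1 (AT5G15850), its neighbour in the family, had 336 and 321 CPM and then 10.6 and 13.4 CPM (-4.78 ± 0.15). Both were high in both libraries of day 0.25 and low in both of day 0.75. The CDF genes encode Dof repressors of CO, and CDF1 fell by 3.43, CDF2 fell by 2.69 and CDF3 fell by 1.94. CO itself, at 9.70 and 11.1 CPM against 3.59 and 4.56 CPM, fell by 1.36, and the floral integrator SOC1 fell by 1.44. TEM1, a repressor of FT, was the gene that rose, by 1.24. FLC and SVP, repressors linked to cold and ambient temperature, did not pass.

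Phytochrome-interacting factors and their growth targets were divided. Of 15 genes 5 (33.3%) were higher and 3 (20.0%) lower, against 21.5% and 23.9% of all loci, with a median of 0.70, and 8 were higher and 2 lower under total-count scaling. PIF1 and PIF3 rose by 1.19 and 1.32 alongside PIF4. PIF5 stood at 69.3 and 68.5 CPM at day 0.25 and at 62.9 and 65.7 CPM at day 0.75 and did not pass (-0.10). PIF7 went the other way, from 37.6 and 39.4 CPM to 13.7 and 13.7 CPM (-1.49). Of the targets, ATHB2, a shade-induced homeobox factor, rose by 1.24 and IAA29, an auxin signalling repressor, by 1.85 ± 0.30. CKX5, which degrades cytokinin, fell by 1.85 ± 0.25 and IAA19 fell by 0.82, the latter not passing under total-count scaling, while YUC8 and PIL1 did not pass.

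B-box and other light-signalling genes were more often lower than higher. In the list of 26, 15 (57.7%, against 23.9% of all loci) were lower, 5 higher and 6 did not pass, with a median of -0.69 and, under total-count scaling, 13 lower and 6 higher. BBX30 (AT4G15248), a microprotein of the B-box family, had 13.3 and 14.7 CPM at day 0.25 and 0.329 and 0.221 CPM at day 0.75 (-5.62 ± 0.32, adjusted p 4.33e-07; -6.65 with lane 1 alone and -5.01 with lane 2 alone). BBX25 (AT2G31380), a B-box repressor of HY5 action, went from 574 and 492 CPM to 13.0 and 17.8 CPM (-5.12 ± 0.18). BBX29 (AT5G54470) went from 71.3 and 75.3 CPM to 3.37 and 4.45 CPM (-4.24 ± 0.32). The 3 genes had no overlap between groups, as was so at 73.6% of all loci. BBX18, BBX19 and BBX31 fell by 3.80, 3.68 and 3.88 as well. BBX22 and BBX21, which promote light responses, rose by 2.01 and 0.83. HY5, the bZIP factor at the centre of light signalling, was at 13.0 and 13.4 CPM and then at 14 and 12 CPM and did not pass, whereas its homolog HYH fell by 2.96. Of the COP1 and SPA genes, which target such factors for degradation, COP1 fell by 0.65, SPA1 by 0.89, SPA3 by 1.23 and SPA4 by 1.38.

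The phytochrome, cryptochrome, phototropin and UVR8 genes of the list differed by less than 2-fold, unlike the blue-light receptor gene FKF1. PHYA, the far-red phytochrome, rose by 0.54, PHOT1, a phototropin, by 0.38 and UVR8, the UV-B receptor, by 0.48. CRY1, a cryptochrome, fell by 0.33. PHYB, CRY2 and PHOT2 did not pass, at 0.23, -0.03 and -0.13. Under total-count scaling PHYB passed as higher, CRY1 did not pass, and CRY2 and PHOT2 turned positive.

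**Figure D3:**
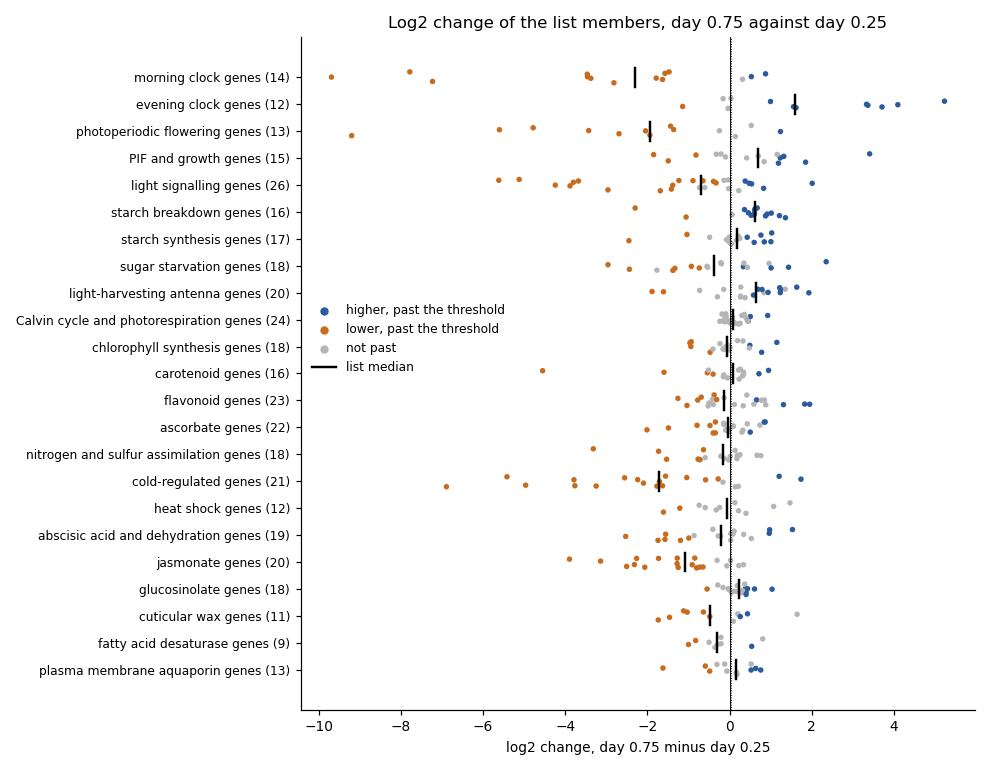
Log2 change from day 0.25 to day 0.75 (horizontal axis) of the tested members of 23 gene lists (rows, with the number tested), each point 1 gene coloured by whether and in which direction it passed the threshold; a heat shock gene with no count at day 0.25 is not drawn. Black bars are list medians, which lie lowest for the morning clock list (-2.30) and the photoperiodic flowering list (-1.94) and highest for the evening clock list (1.59); the dotted line is the median of all loci, 0.03.

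Starch in leaves is built up in the light and broken down at night by phosphorylation of the granule, debranching and beta-amylases, with maltose exported from the chloroplast. Of 16 breakdown genes 13 (81.2%, against 21.5% of all loci) were higher, 2 lower and 1, LDA, not past the threshold, at a median log2 change of 0.61, and 10 to 12 were higher without 1 replicate. AMY3 (AT1G69830), the chloroplast alpha-amylase, was at 145 and 156 CPM at day 0.25 and at 414 and 358 CPM at day 0.75 (1.36 ± 0.13, adjusted p 1.30e-05). PHS1 (AT3G29320), the plastid glucan phosphorylase, was at 144 and 136 CPM and then at 358 and 291 CPM (1.21 ± 0.14). DPE2, the cytosolic enzyme that uses maltose, had 284 and 331 CPM and then 560 and 600 CPM (0.92). In these 3 genes every library of day 0.75 lay above both of day 0.25. Groups did not overlap at 73.6% of all loci. The rises of the rest were smaller, among them GWD1 and PWD, the glucan and phosphoglucan water dikinases (0.61 and 0.59), SEX4, the glucan phosphatase (0.62), ISA3, a debranching enzyme (0.88), and MEX1, the maltose exporter (0.36).

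The 2 beta-amylases of the list, BAM1 and BAM3, were the genes that fell. BAM3 (AT4G17090), the main beta-amylase of leaf starch at night, was at 8070 and 9394 CPM at day 0.25 and at 1693 and 1861 CPM at day 0.75 (-2.30 ± 0.16, adjusted p 2.10e-06). BAM1 was at 287 and 352 CPM and then at 127 and 181 CPM (-1.06). BAM3 was highest at day 0.25 among the 6 times, with 5601 CPM at day 0.083 and 4859 CPM at day 0.375. Genes on the other strand overlap BAM3, and nothing in the sources says that reads were assigned by strand.

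In the starch synthesis list 6 of 17 genes (35.3%, against 21.5% of all loci) were higher, 2 lower and 9 not past the threshold, at a median of 0.17. GBSS1 (AT1G32900), the granule-bound synthase that makes amylose, was at 603 and 678 CPM at day 0.25 and at 77.5 and 157 CPM at day 0.75 (-2.45 ± 0.37, adjusted p 0.000339; -3.05 without replicate 2 of day 0.75). SS2, a soluble synthase, had 99.8 and 105 CPM and then 48.2 and 51.8 CPM (-1.04 ± 0.10). The isoamylase subunits ISA1 and ISA2, which trim growing glucans, rose by 1.03 ± 0.09 and 0.85, and the synthases SS4 and SS3 by 0.76 and 0.43. ADG1 and the APL genes, subunits of the committed enzyme ADP-glucose pyrophosphorylase, did not pass.

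Among genes known to be induced by sugar starvation or in the dark, 4 of 18 (22.2%) were higher and 6 (33.3%) lower, against 21.5% and 23.9% of all loci, with a median of -0.37. DYL1 (AT1G28330), a dormancy-associated gene, was at 8.81 and 12.7 CPM at day 0.25 and at 41.6 and 68.2 CPM at day 0.75 (2.35 ± 0.26, adjusted p 4.30e-05). DIN3 and MCCA, which act in branched-chain amino acid breakdown, rose by 1.44 and 1.01. TPS11 (AT2G18700), a class II trehalose-phosphate synthase protein, fell from 47.4 and 58.9 CPM to 9.90 and 9.70 CPM (-2.44 ± 0.19), and TPS8 and TPS10 fell by 0.93 and 1.38. DIN11 was low, at 4.35 and 3.66 CPM and then 0.877 and 0.0735 CPM (-2.96 ± 0.84, adjusted p 0.0141). Its change was -5.66 without replicate 1 of day 0.75, and it did not pass without replicate 1 of day 0.25 (-2.83) or without replicate 2 of day 0.75 (-2.19). ASN1, the asparagine synthetase often used to mark starvation, was at 2.44 and 1.43 CPM and then at 0.713 and 2.76 CPM and did not pass.

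Light-harvesting antenna genes were higher in 9 of 20 cases (45.0%) and lower in 2 (10.0%), against 21.5% and 23.9% of all loci, with a median of 0.64. The higher count was 12 under total-count scaling, with 2 lower, and 11 without day 0.916. LHCB4.2 (AT3G08940), a minor antenna protein of photosystem II, was at 120 and 96.0 CPM at day 0.25 and at 492 and 332 CPM at day 0.75 (1.93 ± 0.32, adjusted p 0.000598). LHCA6 (AT1G19150), an antenna protein of photosystem I, was at 46.2 and 43.7 CPM and then at 156 and 124 CPM (1.64 ± 0.24), and LHCA1, LHCA2, LHCA3 and LHCA4 rose by 0.58 to 0.94. LHCB2.1 (AT2G05100), a major light-harvesting protein, went the other way from 974 and 841 CPM to 311 and 181 CPM (-1.89 ± 0.33), as did LHCB1.1 (-1.61). Reads of the near-identical LHCB1 and LHCB2 copies may be divided unequally among them. In 19 of the 20 genes replicate 1 of day 0.75 lay above replicate 2, with a median log2 difference of -0.54 for replicate 2 over replicate 1. The number of higher genes was 3 without replicate 2 of day 0.25 and 4 without replicate 1 of day 0.75, and the lower number was 1 without replicate 1 of day 0.25 or without replicate 2 of day 0.75, and 4 without day 0.916.

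Calvin cycle and photorespiration genes mostly did not pass, with 3 of 24 higher (12.5%, against 21.5% of all loci), 0 lower and a median of 0.09 in edgeR. At an unadjusted p under 0.05 these were 7 higher and 0 lower, and with DESeq2 6 and 0. RBCS2B, a Rubisco small subunit, had 1747 and 1534 CPM at day 0.25 and 3877 and 2368 CPM at day 0.75 (0.93 ± 0.28, adjusted p 0.0196), and the other 2 were HPR1, the peroxisomal hydroxypyruvate reductase (0.51), and CP12-1, a redox regulator of the cycle (0.45). None of the 3 passed without either replicate of day 0.25 or without replicate 1 of day 0.75, where RBCS2B was at 0.56. The list then had 0 higher genes, but 5 without replicate 2 of day 0.75, 7 without day 0.916 and 10 under total-count scaling. Replicate 2 of day 0.75 was below replicate 1 at all 24 genes. The part of that replicate difference in the result was not tested.

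Of 18 chlorophyll synthesis genes 3 (16.7%) were higher and 4 (22.2%) lower, near the 21.5% and 23.9% of all loci, with a median of -0.07, so the counts say nothing particular about the list. PORB, a light-dependent protochlorophyllide reductase, rose from 94.8 and 84.9 CPM to 240 and 159 CPM (1.15 ± 0.27). HEMA1, which opens tetrapyrrole synthesis, fell from 200 and 211 CPM to 128 and 85 CPM (-0.94 ± 0.29), and CAO, chlorophyllide a oxygenase, from 144 and 125 CPM to 74.3 and 63.2 CPM (-0.97 ± 0.12). HEMA1 did not pass without either replicate of day 0.25 (-0.98 and -0.90) or without replicate 2 of day 0.75 (-0.67). The higher count was 1 without either replicate of day 0.25 or without replicate 1 of day 0.75, and 5 without day 0.916. The lower count was 2 without either replicate of day 0.25 and 1 without replicate 2 of day 0.75.

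Of 16 carotenoid genes 2 (12.5%) were higher and 4 (25%) lower, against 21.5% and 23.9% of all loci, with a median of 0.09. BCH2 (AT5G52570), a beta-carotene hydroxylase, fell from 50.2 and 49.7 CPM to 1.97 and 2.32 CPM (-4.55 ± 0.26, adjusted p 4.41e-07). Its copy BCH1 stood at 37.4 and 34.1 CPM and then at 44.9 and 41.1 CPM and did not pass. ZEP, zeaxanthin epoxidase of the xanthophyll cycle, fell from 617 and 697 CPM to 197 and 238 CPM (-1.59 ± 0.14), while NPQ1, the violaxanthin de-epoxidase that runs the opposite step, did not pass (0.32), except under total-count scaling. DXS, which opens the plastid isoprenoid pathway, rose by 0.95 ± 0.13. The higher count was 7 under total-count scaling, with 3 lower, 6 without day 0.916 and 4 without replicate 2 of day 0.75.

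The flavonoid list showed the widest gap between the replicates of day 0.75. Replicate 2 was above replicate 1 at 20 of 23 genes, with a median log2 difference of 0.96, against 0.08 at day 0.25. Of the list 4 genes were higher and 6 lower, with a median of -0.13. The 6 lower are 26.1% of it, against 23.9% of all loci. The 4 higher are a smaller share of the list than the 21.5% called higher among all loci. The early steps were mixed. The lower genes were PAL2 (-1.04), C4H (-0.38), 4CL3 (-0.69), CHS, FLS1 and UGT78D1 (-0.31), while 4CL1 was higher (0.66) and PAL1, CHI, F3H and TT7 did not pass. CHS, chalcone synthase, had 1719 and 1746 CPM at day 0.25 and 699 and 1327 CPM at day 0.75 (-0.77), and FLS1, flavonol synthase, had 152 and 150 CPM and then 64.9 and 61.4 CPM (-1.26). FLS1 was low in both replicates of day 0.75, unlike CHS, and the calls of CHS, C4H and UGT78D1 were lost under total-count scaling.

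Beside 4CL1 the higher genes were 2 regulators and 1 late anthocyanin gene. MYB75 (AT1G56650), which turns on anthocyanin synthesis, was at 16.2 and 18.9 CPM at day 0.25 and at 45.7 and 90.11 CPM at day 0.75 (1.95 ± 0.32, adjusted p 0.000575). MYB90, its close copy, was at 17.45 and 23 CPM and then at 30.2 and 114 CPM (1.83 ± 0.58, adjusted p 0.0240). The malonyltransferase gene 5MAT was at 22.4 and 26.5 CPM and then at 35.3 and 86.4 CPM (1.31 ± 0.37, adjusted p 0.0148). MYB90 and 5MAT did not pass without either replicate of day 0.25, and without replicate 2 of day 0.75 they were at 0.58 and 0.53 and did not pass. DFR and LDOX, at 203 and 503 CPM and at 182 and 448 CPM at day 0.75, did not pass, nor did UF3GT, GSTF12, UGT78D2, TT8, MYB11, MYB12 and MYB111, of which TT8 and MYB111 were called higher under total-count scaling. The list had 8 higher and 3 lower genes without replicate 1 of day 0.75, and 2 higher and 10 lower without replicate 2. Without either replicate of day 0.25 it had 2 higher and 3 lower, without day 0.916 it had 7 and 7, and under total-count scaling 6 and 3.

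**Figure D4:**
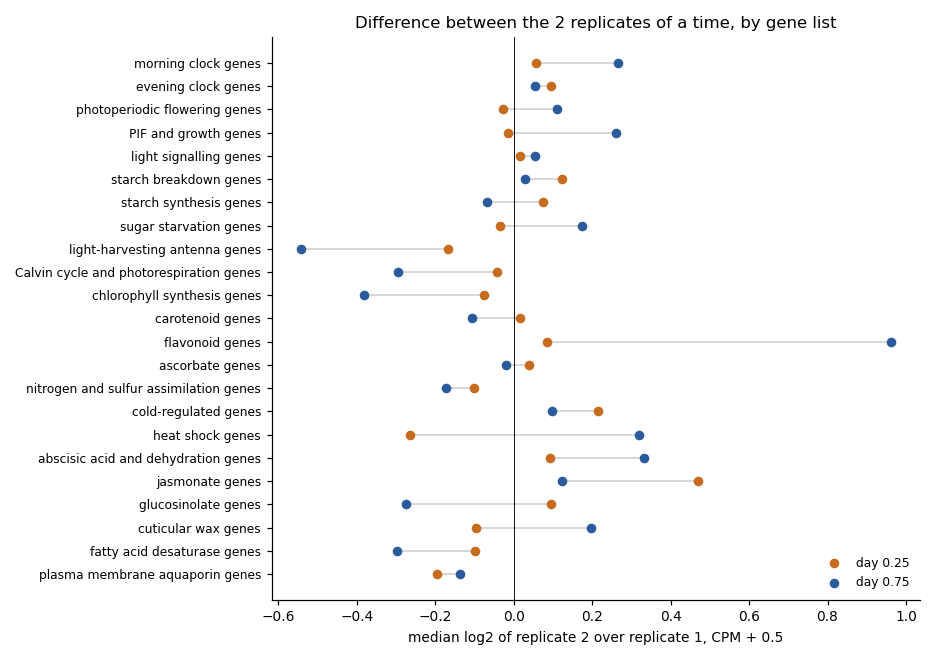
Median log2 difference between replicate 2 and replicate 1 (horizontal axis, from CPM with 0.5 added) over the tested members of each gene list (rows), at day 0.25 and at day 0.75. At day 0.75 the flavonoid list lies at 0.96 and the antenna list at -0.54, while at day 0.25 the same lists lie at 0.08 and -0.17.

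Ascorbate is made in plants from mannose and galactose intermediates, and the step catalysed by GDP-L-galactose phosphorylase is regarded as the main point of control. That enzyme is encoded by VTC2 and VTC5, and the series title names it. VTC2 (AT4G26850) had 1612 and 1629 CPM at day 0.25 and 534 and 623 CPM at day 0.75, 2.80-fold lower (-1.49 ± 0.12, adjusted p 5.02e-06). VTC5 (AT5G55120) had 25 and 20.1 CPM and then 40.3 and 42.1 CPM, 1.83-fold higher (0.87 ± 0.11, adjusted p 0.000125). The replicates of neither gene overlapped, as at 73.6% of all loci, and both calls were kept in all alternatives run. Over the 6 times VTC2 peaked at day 0.25 and had its trough of 310 CPM at day 0.625, and VTC5 was highest at day 0.75. The genes match over 119 bases at 91.6% identity, so a small part of their reads may be exchanged.

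Of the 22 ascorbate genes tested of 23, 3 (13.6%) were higher and 7 (31.8%) lower, against 21.5% and 23.9% of all loci, with a median of -0.04. MDAR3 (AT3G09940), a monodehydroascorbate reductase, fell from 31.7 and 26.6 CPM to 8.47 and 5.92 CPM (-2.01 ± 0.25, adjusted p 8.41e-05). In the synthesis pathway GME, the GDP-mannose epimerase, fell by 0.79, PMI1, phosphomannose isomerase, by 0.40, and CYT1, which makes GDP-mannose, by 0.34, while AT4G33670 rose by 0.84 ± 0.13, from 26.4 and 23.65 CPM to 45.4 and 44.4 CPM. The peroxidases APX1 and SAPX fell by 0.48 and 0.35, and MDAR4 rose by 0.50. GLDH, which carries out the last step, and the dehydroascorbate reductases DHAR1, DHAR2 and DHAR3 did not pass. Under total-count scaling the falls of PMI1, CYT1, APX1 and SAPX did not pass, DHAR2 passed, and the list had 7 higher and 3 lower genes, without day 0.916 it had 6 higher, and without replicate 2 of day 0.25 or replicate 1 of day 0.75 it had 4 lower.

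Sulfate assimilation reduces sulfate through APS reductase, and nitrate assimilation begins with nitrate reductase. In this list 6 of 18 genes (33.3%, against 23.9% of all loci) were lower and 0 higher in edgeR, with a median of -0.17. At an unadjusted p under 0.05, and also with DESeq2, 8 were lower and 0 higher, and under total-count scaling 5 were lower and 2 higher. APR2 (AT1G62180), the main APS reductase, went from 1152 and 1058 CPM to 109 and 113 CPM (-3.32 ± 0.15, adjusted p 9.60e-08), and APR3 from 385 and 364 CPM to 98.9 and 127 CPM (-1.73 ± 0.18). NIA2 (AT1G37130), the main nitrate reductase, went from 893 and 705 CPM to 381 and 171 CPM (-1.53 ± 0.36, adjusted p 0.00525; -2.19 without replicate 1 of day 0.75). Its replicates of day 0.75 were far apart, yet both lay below day 0.25. APR1, APS1 and GLN1;1 fell by 0.77, 0.73 and 0.63, GLN1;1 not passing under total-count scaling.

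Most cold-regulated genes were lower at day 0.75. CBF factors are induced by cold within hours, are gated by the clock, and activate COR genes whose products protect cells during freezing. Of 21 genes 16 (76.2%, against 23.9% of all loci) were lower, 2 higher and 3 not past the threshold, with a median log2 change of -1.71, and 13 were lower and 3 higher under total-count scaling. GOLS3 (AT1G09350), a galactinol synthase that starts raffinose synthesis, was at 2108 and 2478 CPM at day 0.25 and at 14.5 and 24.3 CPM at day 0.75, 118-fold lower (-6.89 ± 0.39, adjusted p 4.39e-07). CBF2 (AT4G25470) was at 56.4 and 54.0 CPM and then at 1.26 and 1.32 CPM (-5.42 ± 0.27). LTI30 (AT3G50970), a dehydrin, was at 689 and 886 CPM and then at 14.6 and 36.2 CPM (-4.96 ± 0.41; -5.75 without replicate 2 of day 0.75). These 3 genes were high in both libraries of day 0.25 and low in both of day 0.75. Their groups did not overlap, as at 73.6% of all loci.

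The dehydrins COR47 and ERD10 fell by 3.79 and 3.76, and RD29A, a standard cold and drought reporter, went from 5781 and 7315 CPM to 572 and 808 CPM (-3.25). COR15A, which protects chloroplast membranes, fell by 1.77, KIN2 by 1.71 and KIN1 by 1.63. The CBF genes themselves were uneven: CBF1 fell by 2.09, while CBF3 was at 18.3 and 24.9 CPM and then at 15.4 and 23.4 CPM, with overlapping replicates, and did not pass (-0.16). CBF2 and CBF3 share sequence, so reads may be divided between them. COR27 and AT4G33980 ran against the list, rising by 1.21 and 1.74, with COR27, a cold-induced gene that also acts in the clock, at 29.98 and 31.9 CPM and then at 71.5 and 71.4 CPM. GRP7 and GRP8, clock-controlled RNA-binding proteins, did not pass, though GRP8 was called higher under total-count scaling. Night temperature was 5 °C and day temperature 23 °C, and the temperature at each harvest is not given in the labels.

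**Figure D5:**
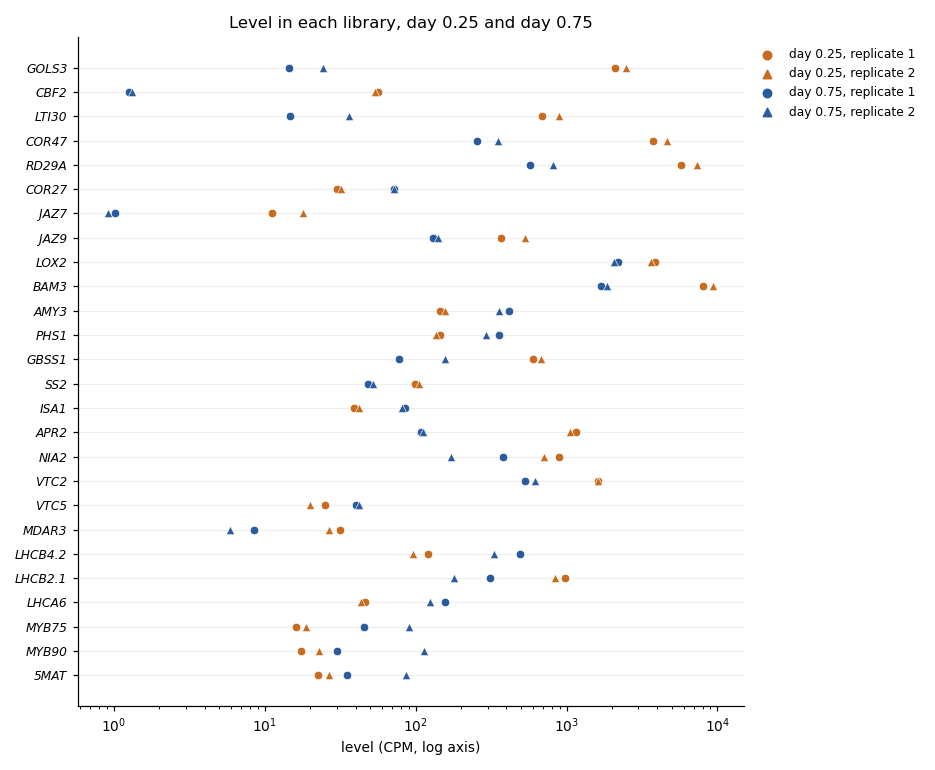
Level of 26 named genes (rows) in each of the 4 libraries (horizontal axis, CPM on a log scale), with colour for the day and shape for the replicate. GOLS3 lies at 2108 and 2478 CPM at day 0.25 and at 14.5 and 24.3 at day 0.75, VTC2 and VTC5 move in opposite directions, and MYB90 shows the wide gap between the replicates of day 0.75, 30.2 and 114.

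Most jasmonate genes were lower. Of 20 genes 15 (75%, against 23.9% of all loci) were lower, 0 higher and 5 not past the threshold, with a median of -1.08 in edgeR. At an unadjusted p under 0.05 these were 15 lower and 1 higher, with DESeq2 15 and 0, and under total-count scaling 14 and 1. The JAZ repressors, which are themselves induced by jasmonate, gave 8 of these, from JAZ10 (-0.85) to JAZ7 (AT2G34600), which was at 11.2 and 17.8 CPM at day 0.25 and at 1.01 and 0.919 CPM at day 0.75 (-3.90 ± 0.39, adjusted p 2.25e-05). CYP94B3, which inactivates the hormone, was at 26.0 and 58.4 CPM and then at 1.62 and 8.27 CPM (-3.14 ± 0.70, adjusted p 0.00381). JAZ8 was near 1 CPM and its fall by 2.50 ± 0.71 did not pass without replicate 2 of day 0.25 (-1.33), without either replicate of day 0.75 (-2.56 and -2.43) or with lane 1 alone (-1.80).

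Genes of jasmonate synthesis were lower beside the repressors. LOX2, the chloroplast lipoxygenase of the pathway, had 3830 and 3610 CPM and then 2197 and 2075 CPM (-0.80), and LOX3, LOX4, AOC1, AOC2 and OPR3 fell by 0.65 to 2.06, OPR3 not passing under total-count scaling. AOS, the factor MYC2 and the storage proteins VSP1 and VSP2 did not pass. At day 0.25 replicate 2 lay above replicate 1 at 13 of the 20 genes, with a median log2 difference of 0.47, wider than the 0.12 at day 0.75, and MYC2 was at 73.6 and 149 CPM there. The part of that replicate difference in the list's counts was not tested.

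Abscisic acid and dehydration genes were divided, with 3 of 19 higher (15.8%) and 6 lower (31.6%), against 21.5% and 23.9% of all loci, and a median of -0.22. Of the receptors PYL6 fell from 2.54 and 3.15 CPM to 0.439 and 0.551 CPM (-2.53 ± 0.36) and PYL5 by 1.74 ± 0.27. The hydroxylases that degrade the hormone moved apart, CYP707A1 falling by 1.56 and CYP707A2 rising by 1.53. The phosphatases HAI1 and HAI2, which act as brakes on the pathway, rose by 0.98 and 0.97, and HAB1 fell by 0.99. LEA4-5, a protective protein, fell from 25.6 and 27.8 CPM to 5.40 and 12.8 CPM (-1.57 ± 0.40), with -2.30 without replicate 2 of day 0.75 and -1.03, not past the threshold, without replicate 1.

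Of 12 heat shock genes tested of 15, 2 (16.7%, against 23.9% of all loci) were lower and 0 higher in edgeR, at an unadjusted p under 0.05 and with DESeq2. HSC70-1, an abundant chaperone expressed without stress, went from 3009 and 2985 CPM to 978 and 987 CPM (-1.61 ± 0.15, adjusted p 1.20e-05), and HSFB2A, a heat shock factor, fell by 1.21 ± 0.22. HSP101 and HSP90.1, chaperones that heat induces, did not pass.

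Glucosinolate genes, which make the sulfur-rich defence compounds of this plant family, were higher in 6 of 18 cases (33.3%, against 21.5% of all loci) and lower in 1, with a median of 0.24. MYB51, the factor for the indolic branch, went from 6.17 and 9.19 CPM to 13.6 and 17.9 CPM (1.04 ± 0.36, adjusted p 0.0376), and SOT17, a sulfotransferase of the aliphatic branch, from 46.0 and 48.4 CPM to 82.6 and 61.2 CPM (0.61 ± 0.12). MYB28 and MYB29, related factors of the aliphatic branch, were at 0.40 and -0.55. Several of these calls rested on single libraries. MYB51 did not pass without replicate 1 (0.77) or replicate 2 of day 0.25 (1.35), without replicate 2 of day 0.75 (0.83) or with lane 1 alone (1.04), and MYB29 not without replicate 2 of day 0.75 (-0.37). The higher count was 12 under total-count scaling, 1 and 3 without replicates 1 and 2 of day 0.25 and 2 without replicate 1 of day 0.75, and the lower count was 0 without replicate 2 of day 0.75.

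Of 11 cuticular wax genes 6 (54.5%, against 23.9% of all loci) were lower and 2 higher, with a median of -0.48. KCS1, a fatty acid elongase, fell from 94.1 and 101 CPM to 33.4 and 25.2 CPM (-1.73 ± 0.22), WSD1, a wax ester synthase, by 1.46 ± 0.24 and CER4, an alcohol-forming reductase, by 1.12 ± 0.22. The 2 higher genes, KCR1 (0.26) and DEWAX (0.44), left the count at 0 without either replicate of day 0.25, without replicate 2 of day 0.75, with only the 2 groups fitted and with lane 2 alone, and at 1 with DESeq2 and with no filter beyond 1 read.

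Of 9 fatty acid desaturase genes 1 (11.1%) was higher and 2 (22.2%) lower, against 21.5% and 23.9% of all loci. ADS2 fell from 250 and 286 CPM to 134 and 134 CPM (-1.0 ± 0.10), SSI2, the stearoyl desaturase of the plastid, fell by 0.83 ± 0.09, and FAD2 of the endoplasmic reticulum rose by 0.54 ± 0.11. The lower count was 5 without day 0.916 and the higher count 2 without replicate 1 of day 0.25. Of 13 plasma membrane aquaporins 3 (23.1%) were higher and 3 (23.1%) lower, near those shares. PIP2;6 fell from 926 and 846 CPM to 302 and 275 CPM (-1.62 ± 0.16, adjusted p 1.82e-05), while PIP1;5 rose by 0.76 ± 0.13. PIP2B rose by 0.64 ± 0.18 but did not pass without replicate 2 of day 0.25 (0.41) or replicate 1 of day 0.75 (0.59).

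Sequence copies and overlaps limit some of the values above. Of the 98 named loci, 17 match another locus over 100 bases or more at an identity of 85% or more. They are RVE7, PRR9, FKF1, CCL, DIN11, LHCB2.1, RBCS2B, BCH2, DXS, MYB75, MYB90, VTC2, VTC5, CBF2, HSC70-1, MYB29 and PIP2B. A gene on the opposite strand overlaps 23 of the loci, among them RVE1, LNK1, LNK2, LNK3, ELF3, LUX, BOA, FKF1, LKP2, COL1, COL2, BBX25, BAM3, PHS1, LHCB4.2, CAO, APR2 and APR3. Reads of such pairs cannot be told apart where strand was not used.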

How the data were processed

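Leaf RNA was sequenced in 4 libraries of 2 labelled times. Per the labels, whole rosettes were ground, RNA of separate plants (RNA integrity number above 7) was pooled at random, and libraries were made by the usual Illumina procedure. The deposited table holds raw counts of reads per transcript and lane, and the submitters' processing notes name Bowtie2 and TAIR10. The counting tool and the use of strand are not given in the sources used here. Of the deposited counts from 1 to 10, 70.2% are even, as counts of both mates of a pair would be, and halved counts were tried.

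The 41671 transcripts were summed to 33602 loci, of which 32835 matched RefSeq TAIR10.1, and lanes to libraries. The test was edgeR 4.0.16 (R 4.3.3): TMM scaling, the filterByExpr filter, quasi-likelihood F tests, and 1 fit over the 12 libraries of the 6 diurnal times, which ranged from 20418095 to 35859304 counts. An SE is the size of the log2 change over the root of F, and levels are given as both replicate values in place of an SD. Copies were found with blastn 2.17.0. On simulated counts with 200 changed loci of 20958, 80.5% were recovered with 5.29% false calls, which cannot check the scaling where 45.4% of loci pass. The simulated loci took only the trend of spread with level, and unchanged loci had the same mean at every time. The share of false calls therefore does not carry over to these data. Genes named are the clock lists, the 10 largest rises and 10 largest falls past the threshold with mean log2 CPM of at least 3 and replicates that do not overlap, the 3 largest changes past the threshold of each other list, and VTC2 and VTC5. Further list members were named after their values were seen. The comparison, members, lists and rule were chosen with earlier results of these data known. Alternatives were RLE size factors, total-count scaling, DESeq2 1.42.0, other filters, a replicate block, single lanes, lanes as samples, halved counts, first-listed transcripts, fewer groups and leaving out each replicate. Other tables of the series are not used here.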

Additional observations from a re-analysis of the deposited data

How the results depend on the processing

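The count of loci past the threshold, 9525, ran from 7974 with lane 1 alone to 12172 with each lane as its own sample, which treats lanes as replicates, and from 6825 to 7778 without 1 replicate. The higher count, 4509, ran from 3005 (without replicate 2 of day 0.25) to 3705 without 1 replicate, where fewer libraries are fitted. The lower count, 5016, was 3293 under total-count scaling, which moves the centre of all loci. DESeq2 called 9495 loci and halved counts 9505. The first-listed transcript alone gave 9163, of which 8848 were also called in the summed counts, 8847 of them in the same direction. Over the 98 named loci, sign changes occurred for 3 genes that had not passed. TOC1 was at 0.16 under total-count scaling, at 0.012 with lane 1 alone and from -0.11 to 0.051 without 1 replicate, and ZTL was at -0.012 with lane 2 alone and from -0.068 to 0.17 without 1 replicate. LKP2 was at 0.045 under total-count scaling. The replicate numbers mark random pools and do not pair the libraries by design, and the replicate differences of the 2 times correlated across 13335 loci with r = 0.28. With the replicate block 9011 loci passed, MYB51 (1.03) did not, and the higher counts were 3 for glucosinolate and 0 for wax genes. The cause of these changes was not tested. Levels under about 1 CPM rest on few counts.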
